A study of Homo sapiens with 6 samples.

Results

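Heat shock proteins and their co-chaperones were followed in a pair of human cybrids, cells that combine 1 nucleus with the mitochondria of another line. The family as taken here comprises 42 genes, from the factors HSF1 and HSF2 to the chaperonin of the mitochondrial matrix. The probe sets that the platform table assigns to a single one of these genes were used. By that rule 37 genes with 84 probe sets were measured, out of 19775 genes and 41091 single-gene probe sets on the array. HSPA1A, HSPA1B and HSPA8 are listed only on probe sets shared with other genes, and HSF2 and AHSA1 are listed on none that could be named, so these 5 have no value here.

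Both groups carry the nucleus of 143B, an osteosarcoma line labelled as lacking thymidine kinase (TK-), in its form without mitochondrial DNA. 10A/143B received mitochondria of MCF10A, a non-tumorigenic breast epithelial line, and 468/143B those of MDA-MB-468, a metastatic breast cancer line. Donor cells had been enucleated under actinomycin D and fused with polyethylene glycol, and cybrids were selected with bromodeoxyuridine in medium lacking uridine, so both groups share the fusion and the selection. Each was measured on 3 arrays from 3 RNA extractions. The labels give the donor as the cell line, and do not say whether a cybrid is 1 clone or a pool.

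Chaperones bind unfolded or partly folded proteins and release them in cycles. HSP70 proteins hydrolyse ATP as they clamp onto a client, J-domain proteins (DNAJA, DNAJB and DNAJC) deliver clients and start the hydrolysis, and nucleotide exchange factors of the HSP110 and BAG families reset the cycle. HSP90 takes over late-folding clients such as kinases with the help of its own co-chaperones, small heat shock proteins hold clients without ATP, and mitochondria have their own set. HSF1 turns on the inducible members when unfolded proteins accumulate.

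Median array intensities lay between 21.7 and 24.4 for 10A/143B, and between 20.4 and 21.4 for 468/143B. Replicates 2 and 3 were near duplicates in both groups, with an SD of their log2 difference of 0.079 and 0.093 against 0.265 to 0.289 for replicate 1 against either. They were therefore averaged and counted as 1 sample, leaving n = 2 samples per group, and p-values measure only the spread between these samples, which may be technical. ACTB probe sets at the 3′ and the 5′ end of the transcript, which part when RNA is degraded, had ratios of 1.59 to 1.92 in 10A/143B, the highest in replicate 1. In 468/143B the ratio was 1.18 in replicate 1, and 1.65 and 1.67 in replicates 2 and 3. The same ratios of GAPDH were 0.93 to 1.01 in 10A/143B and 0.97 to 1.07 in 468/143B. VIM, the mesenchymal filament, had mean intensities of 8687 and 8418 in 10A/143B and 468/143B, and the epithelial adhesion gene EPCAM 55.3 and 36.8. Among 11 measured markers of the mitochondrial donors and of epithelium, 10A/143B had 2 lower and 0 higher, KRT8 (-1.09 ± 0.18) and CLDN7 (-0.70 ± 0.21). Their summed intensity was 5003 to 5536 against 6453 to 7048. KRT18 made up most of that sum (means of 4908 and 6198), while KRT5 had means of 1.00 and 1.36 and CDH1 7.92 and 14.9. Of 10 osteosarcoma and mesenchymal markers, 4 were lower and 1 higher, with sums of 11380 to 11979 against 13014 to 14146. The lower ones were FN1 (-2.31 ± 0.12), TWIST1 (-1.30 ± 0.20), TK1 (-0.91 ± 0.14) and SPARC (-0.64 ± 0.10), and SPP1 was higher (0.65 ± 0.16). TK1, the thymidine kinase gene, had mean intensities of 208 in 10A/143B and 399 in 468/143B. Of 11 fibroblast, muscle, blood and endothelial markers, 2 were lower, MYL9 (-2.26 ± 0.29) and ACTA2 (-1.50 ± 0.18), and 0 higher, with sums of 629 to 1010.0 against 1358 to 1662. None of these markers was at the lowest intensity of the array throughout, and their part in the results was not tested.

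Chaperone genes differed between the cybrids in both directions. Of the 37 members, 6 were higher and 6 lower in 10A/143B (adjusted p under 0.05 in limma, against 13.8% of all genes higher and 8.9% lower). That is 32.4% in either direction, against 22.7% of all genes. The median log2 difference of the members, 10A/143B minus 468/143B, was -0.02, as it was over all genes. Among genes whose mean over the 6 arrays reached the median of all probe sets, 12 of 35 members (34.3%) and 35.2% of all 12377 such genes passed (21.4% higher and 13.8% lower), so the share of members that differed was near the background. The higher members were DNAJC10, DNAJC5, HSPA13, HSPA14, DNAJA1 and HSP90AA1, and the lower ones were DNAJB1, BAG1, HSPB1, DNAJA2, STIP1 and DNAJA3. Of these, DNAJC10, DNAJC5, HSPA13 and DNAJB1 differed by at least 2-fold, which is 10.8% of the 37 members against 9.88% of all genes. Arrays of the groups did not overlap for 23 of 37 members, against 45.8% of all genes.

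The counts moved with how the replicates were treated. With the replicate number as a block, 10 members were higher and 9 lower (51.4%, against 31.6% of all genes, 17.8% higher and 13.8% lower). The 7 added were HSPA2, HSPA4, HSPA4L and HSPH1, higher, and TRAP1, CDC37 and DNAJB14, lower. With the 6 arrays as separate samples, 12 were higher and 9 lower (against 19.9% and 15.7% of all genes, together 35.6%). Without replicate 1 of 468/143B, which leaves 1 averaged sample assumed to vary like the others, 4 were higher and 1 lower, and 1895 of all genes passed in place of 4483 (2960 without replicate 1 of 10A/143B). Of all genes that passed, 60.8% were higher, but 49.9% after quantile normalization. The shares given beside the block and the separate arrays are over all genes. They were not taken among the brighter genes, so they are not a like background for the members.

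**Figure D1:**
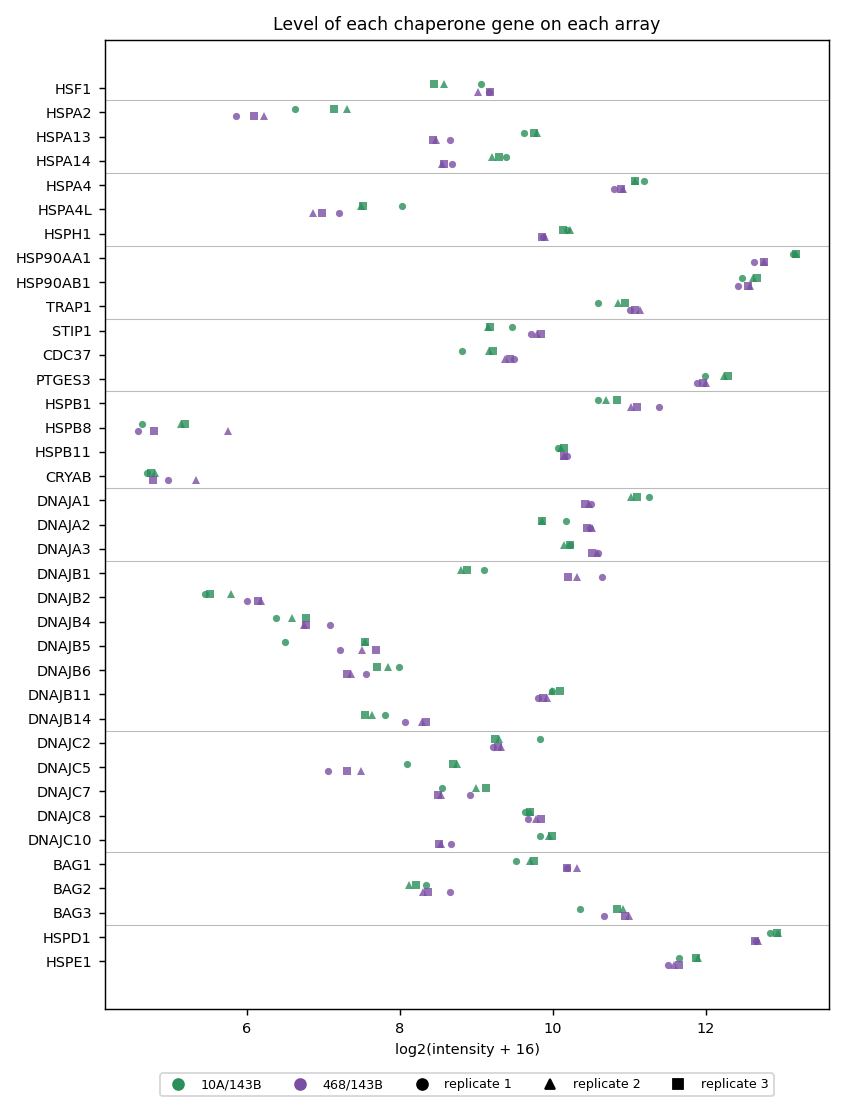
Level of each of the 37 measured genes on each array as log2(intensity + 16), green for 10A/143B and purple for 468/143B, with marker shape for the replicate and grey lines between roles. Levels compare within a gene, since probe sets differ in brightness. The green arrays of HSPA13, DNAJC5 and DNAJC10 lie to the right of the purple ones, and those of DNAJB1 and BAG1 to the left.

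HSF1, the master regulator of the heat shock response, read 519, 367 and 333 on replicates 1, 2 and 3 of 10A/143B and 556, 505 and 564 on those of 468/143B. The first of the 10A/143B arrays thus lay within the range of 468/143B, and the log2 difference of -0.34 ± 0.18 (SE) did not pass (adjusted p = 0.245, but 0.0409 without 10A/143B replicate 1). Its dimmer probe set gave -0.42.

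HSF1 binds inverted repeats of the 3 letters GAA. The 250 bases before the start of each gene were searched for a pair of them, GAANNTTC or TTCNNGAA (each its own reverse complement, overlaps allowed), in the RefSeq promoters of GRCh38.p14. Among 33 measured members with a promoter in the table, 5 held a pair (15.2%), against 11.75% of 27305 promoters. Of the 5, DNAJA1 was higher, HSPB1 was lower, and BAG2, DNAJB6 and HSPB8 did not pass. They are shown because their expression can be set beside the same repeat, in capitals with 16 bases on either side, as written on the gene's own strand (the plus strand for each). They lie at chr9:33025059-33025098 for DNAJA1, chr7:76302475-76302514 for HSPB1, chr6:57172186-57172225 for BAG2, chr7:157336857-157336901 for DNAJB6 and chr12:119178827-119178866 for HSPB8.
DNAJA1: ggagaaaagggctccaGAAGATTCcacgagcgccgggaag
HSPB1: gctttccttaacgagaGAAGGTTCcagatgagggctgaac
BAG2: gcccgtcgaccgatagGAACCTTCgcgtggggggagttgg
DNAJB6: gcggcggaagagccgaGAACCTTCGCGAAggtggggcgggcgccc
HSPB8: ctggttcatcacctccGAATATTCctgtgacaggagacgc
The repeat began 198 bases before the start in DNAJA1, 182 in HSPB1, 131 in DNAJB6, 124 in BAG2 and 88 in HSPB8. The longer form with 3 units, GAANNTTCNNGAA or its reverse complement TTCNNGAANNTTC, occurred in DNAJB6 alone among the 33, and in 0.44% of all promoters. The pair was held by 1 of 5 higher members with a promoter there, by 1 of 6 lower ones and by 3 of 22 that did not pass. A match is a description of these letters and not a site.

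The measured HSP70 genes all had positive differences, and 2 of 3 passed. HSPA13, a microsomal HSP70 with a truncated client domain, read 771, 867 and 843 in 10A/143B against 388, 340.1 and 331 in 468/143B. Its groups stood far apart, and it was 2.20-fold higher (1.14 ± 0.13, adjusted p = 0.000895). Its dimmer probe set went the other way, at 313, 256 and 267 against 437, 405 and 391 (-0.52 ± 0.15, adjusted p = 0.0577 over all probe sets), so the direction depends on the probe set. With the mean of both the difference was 0.31 (adjusted p = 0.116). HSPA14, which works with DNAJC2 at the ribosome on emerging chains, read 653, 572 and 613 against 396, 359.5 and 365 (1.62-fold, 0.69 ± 0.12, adjusted p = 0.00567). The dimmer probe sets of HSPA14 gave 0.22 and -0.50, neither past the threshold, and the mean of all 3 gave 0.14 (adjusted p = 0.502). HSPA2, an HSP70 best known from the testis, was the dimmest of the 3, at 83.3, 143 and 124.5 against 41.9, 58.9 and 52.0. Its groups did not overlap, and the difference was 0.92 ± 0.30 (adjusted p = 0.0666, or 0.00886 with the replicate block and 0.00656 with the arrays as separate samples).

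HSP110 proteins, the nucleotide exchange factors of HSP70, had positive differences as well. HSPA4 read 2320.2, 2135 and 2135 against 1771, 1911 and 1885 (0.28 ± 0.10, adjusted p = 0.0938, or 0.0385 with the block). Of its other probe sets, 2 passed over all probe sets (1.22 and 0.42) and the remaining one gave 0.14. HSPA4L had intensities of 244, 164 and 168 against 132, 100.4 and 111 (0.70 ± 0.23, adjusted p = 0.0686, or 0.00723 with the block), and its other probe set passed at 0.82. For HSPH1, which is induced by heat, they were 1152, 1176 and 1105 against 923, 936 and 910.2 (0.31 ± 0.10, adjusted p = 0.0608, or 0.0265 with the block). The dimmer probe sets of HSPH1 gave -0.004 and 0.08 with overlapping groups (adjusted p = 0.993 and 0.877 over all probe sets), so its difference depends on the probe set. On the probe set used for each of these genes the groups did not overlap, but they also did not for 45.8% of all genes. They did overlap on the HSPA4 probe set that gave 0.14. None of the HSP110 genes passed with replicates 2 and 3 averaged and no block. With the 6 arrays as separate samples they passed without a block as well (adjusted p = 0.0134 for HSPA4, 0.0155 for HSPA4L and 0.00265 for HSPH1).

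Of the HSP90 genes, 1 passed. HSP90AA1, the inducible isoform, read 9027, 9216 and 9281 against 6295, 6937 and 6889 and was 1.38-fold higher in 10A/143B (0.47 ± 0.10, adjusted p = 0.0144). Its other probe sets gave 0.65, 0.47 and 0.38. With the trend of differences over gene length removed, the call on HSP90AA1 was lost (adjusted p = 0.0785), as it was without 468/143B replicate 1 (adjusted p = 0.335) and without the intensity trend of the fit (adjusted p = 0.101). HSP90AB1, the constitutive isoform, read 5673, 6252 and 6472 against 5480.1, 6081 and 5955, with overlapping groups (0.06 ± 0.11, adjusted p = 0.755). Whether the isoforms differed from each other in their response was not tested.

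Of the co-chaperones of HSP90, 1 of 3 passed, in the lower direction. STIP1, which hands clients from HSP70 to HSP90, read 689.8, 553 and 564 against 826, 867 and 904 and was 1.37-fold lower in 10A/143B (-0.45 ± 0.13, adjusted p = 0.0421). This call was close to the threshold and was lost without 468/143B replicate 1 (adjusted p = 0.160), and also when replicate 2 of 10A/143B (adjusted p = 0.0524) or replicate 3 of 468/143B (adjusted p = 0.0519) was left out. It was lost too with its probe sets averaged (adjusted p = 0.0899), over all probe sets (adjusted p = 0.0670), after correction for gene length (adjusted p = 0.0587) and without the intensity trend (adjusted p = 0.153), and STIP1 passed in 11 of 20 tested alternatives. CDC37, which recruits kinases, read 434, 560.3 and 580.0 against 704, 648 and 680.3. Its difference was -0.45 ± 0.15 (adjusted p = 0.0670, or 0.0152 with the block). Without a block CDC37 passed after median centring (adjusted p = 0.0282), with the arrays as separate samples (adjusted p = 0.0279) and with dim genes left out (adjusted p = 0.0496). PTGES3, the p23 co-chaperone of the closed HSP90 dimer, read 4039.6, 4804 and 4973 against 3769, 4068 and 3984, with overlap (0.19 ± 0.12, adjusted p = 0.339).

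J-domain genes included several members that passed, in both directions. DNAJB1, the heat-inducible partner of HSP70, read 534, 428 and 455 in 10A/143B against 1585, 1261 and 1160.1 in 468/143B. It was 2.79-fold lower in 10A/143B (-1.48 ± 0.16, adjusted p = 0.000726), by 1.54 between the replicate 1 arrays and 1.42 between replicates 2 and 3. Its other probe set had the same sign but a far smaller difference, with 537, 512 and 508 against 584, 648 and 639 (-0.22 ± 0.12, adjusted p = 0.303 over all probe sets), so the size depends on the probe set.

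DNAJA1 and DNAJA2, partners of HSP70 for cytosolic folding, changed in opposite directions. DNAJA1 read 2419, 2062 and 2179.8 against 1428, 1399 and 1351 (1.61-fold higher, 0.69 ± 0.11, adjusted p = 0.00307). Its second probe set was 2.17-fold higher, at 1323, 1136 and 1105 against 564, 545 and 537. DNAJA2 read 1136, 910.2 and 910.2 against 1418, 1438 and 1379.6 (1.38-fold lower, -0.47 ± 0.13, adjusted p = 0.0312), and its other probe set gave -0.43. Neither gene's groups overlapped on any of these probe sets. Without 468/143B replicate 1, DNAJA2 no longer passed (adjusted p = 0.193), nor did it without the intensity trend (adjusted p = 0.143).

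DNAJC10, a J-domain reductase of the endoplasmic reticulum that opens disulfide bonds, was higher in 10A/143B. It read 898, 969 and 996 against 391, 355 and 347 (2.47-fold, 1.31 ± 0.12, adjusted p = 0.000477). Of its 4 other probe sets, 2 passed in the same direction (0.89 and 1.11), 1 gave 0.71, and the dimmest gave -0.75 without passing. With the mean of all 5 it was 0.66 (adjusted p = 0.0537). DNAJC5, the cysteine string protein of secretory vesicles, read 258, 413 and 399 against 118, 164 and 143 (2.26-fold higher, 1.18 ± 0.24, adjusted p = 0.00953). A second probe set passed at 0.83 and the dimmest one gave -0.02, and the call of DNAJC5 was lost without 468/143B replicate 1 (adjusted p = 0.0917).

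DNAJB14, anchored in the membrane of the endoplasmic reticulum, has no settled direction. On its probe set with the highest mean it read 208, 184 and 170.1 against 252, 298 and 309 (-0.50 ± 0.17, adjusted p = 0.0769, or 0.0297 with the block). On the others it was 4.74-fold higher, at 249, 300.2 and 288 against 44.9, 47.5 and 40.8 (adjusted p = 0.00121 over all probe sets), and 3.82-fold higher (adjusted p = 0.0041). The arrays of the groups did not overlap on any of these probe sets.

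The other J-domain members of the cytosol, nucleus and endoplasmic reticulum did not pass. DNAJB6, which keeps aggregation-prone chains soluble, read 237, 214 and 191 against 172, 148 and 143, without overlap (0.43 ± 0.18, adjusted p = 0.142). DNAJB11, a partner of the HSP70 of the endoplasmic reticulum, differed by 0.17 ± 0.10. DNAJB2, DNAJB4 and DNAJB5, with group means from 32.4 to 163, had differences of -0.53, -0.40 and -0.39 and adjusted p of 0.266 to 0.504. The dimmer probe set of DNAJB5 gave -1.01 without overlap (means of 14.3 and 43.9, adjusted p = 0.0543 over all probe sets). DNAJC8, bound to the splicing machinery, gave -0.08 ± 0.11. DNAJC2, the ribosomal partner of HSPA14, was 0.61 higher between the replicate 1 arrays and -0.03 between replicates 2 and 3, and DNAJC7, which links HSP70 to HSP90, gave -0.37 and 0.55 (with its probe sets averaged, DNAJC7 passed at 0.56, adjusted p = 0.0420). For both genes the replicates differ in sign, as the plot of differences within replicate numbers shows.

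**Figure D2:**
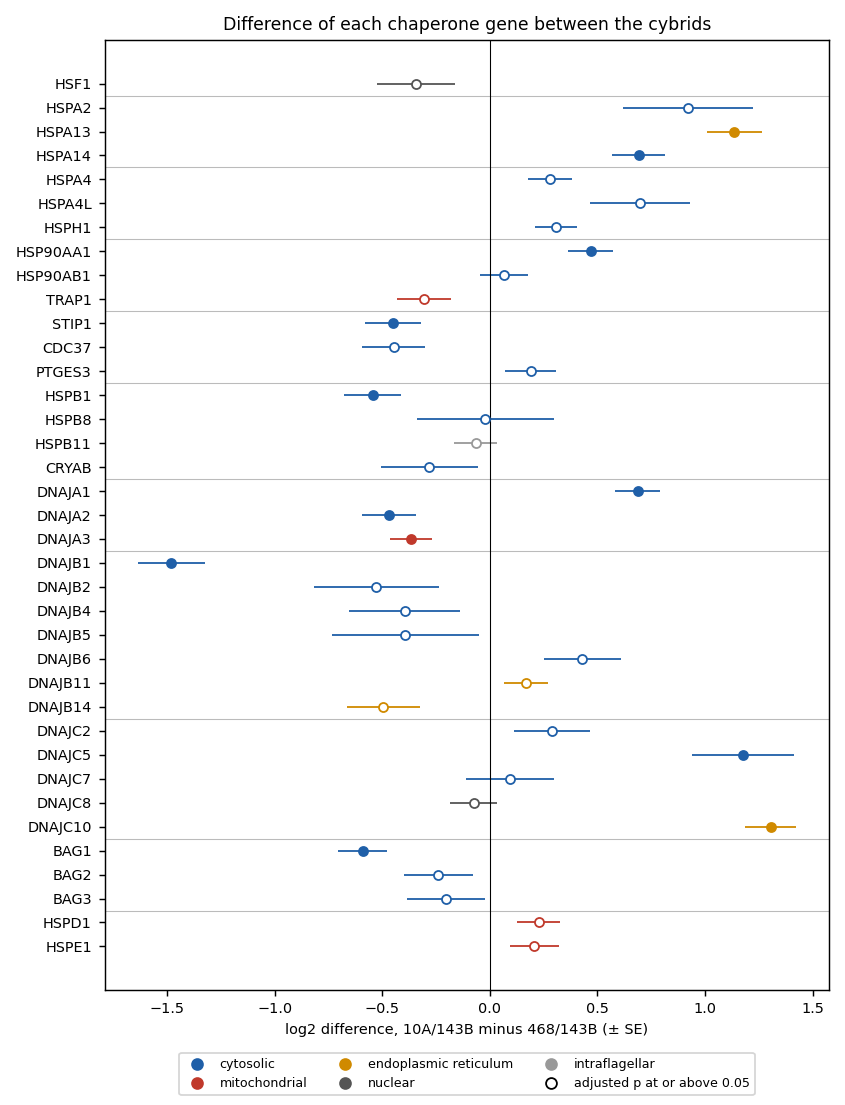
Log2 difference (10A/143B minus 468/143B, ± SE) of each measured gene, grouped by role and coloured by compartment, filled where the adjusted p was under 0.05. DNAJB1 lies farthest left at -1.48 and DNAJC10 farthest right at 1.31, and filled points occur on both sides of 0.

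Small heat shock proteins and BAG factors gave a negative difference in each of the 7 measured genes, as did 51.9% of all genes, and 1 of each passed. Of the 7, HSPB8, HSPB11, BAG2 and BAG3 turned positive in at least 1 alternative, HSPB8 in 5, among them an offset of 1. HSPB1, the abundant small heat shock protein that also guards actin, read 1531, 1641 and 1808 against 2665, 2062 and 2179.8 (1.46-fold lower in 10A/143B, -0.55 ± 0.13, adjusted p = 0.0208). The highest 10A/143B array stayed below the lowest 468/143B array. Leaving out replicate 1 ended the call on HSPB1, on the side of 10A/143B (adjusted p = 0.133) as on that of 468/143B (adjusted p = 0.225), and so did removal of the gene length trend (adjusted p = 0.0657) or of the intensity trend (adjusted p = 0.116). BAG1, which ties HSP70 to the proteasome, read 719, 815 and 849 against 1144, 1261 and 1152 (1.51-fold lower, -0.59 ± 0.11, adjusted p = 0.00783). On a second BAG1 probe set the difference was larger, at 357, 385 and 399 against 729, 744 and 734 (-0.94 ± 0.12), while the dimmest gave 0.56 without passing and the mean of the probe sets -0.32 (adjusted p = 0.308). Without 468/143B replicate 1 BAG1 missed the threshold (adjusted p = 0.0648), as it did without the intensity trend (adjusted p = 0.0670).

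BAG3, the stress-induced partner of small heat shock proteins in selective autophagy, read 1287, 1911 and 1820.3 against 1607, 2019.8 and 1951, with overlapping groups (-0.20 ± 0.18, adjusted p = 0.516). BAG2 gave -0.24 ± 0.16. HSPB8, the partner of BAG3, and CRYAB, the lens crystallin, were dim, from 7.78 to 37.8 and from 9.92 to 24.4 over the 6 arrays, against a median of 22.0 over all probe sets, and neither passed. HSPB11, a member of the family by sequence that serves in intraflagellar transport (now named IFT25), lay at 1053 to 1121 against 1113 to 1144 (-0.07 ± 0.10).

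Of the mitochondrial chaperones, 1 of 4 passed. The chaperonin HSPD1 (HSP60) and its lid HSPE1 (HSP10) fold proteins in the matrix. HSPD1 read 7281, 7858 and 7804 against 6427, 6562 and 6383, without overlap (0.23 ± 0.10, adjusted p = 0.164). HSPE1 read 3191, 3795 and 3717 against 2876, 3061 and 3191, where the lowest 10A/143B array equalled the highest 468/143B array (0.21 ± 0.11, adjusted p = 0.271). Neither passed with the block on averaged replicates (adjusted p = 0.0632 and 0.0981), while both did with the block on 6 arrays (adjusted p = 0.00631 and 0.0123). With the 6 arrays as separate samples and no block, HSPD1 passed (adjusted p = 0.00775). In RefSeq's GRCh38.p14 table these genes are read in opposite directions from starts only 105 bases apart on chromosome 2. The 120 bases before the start of HSPE1, chr2:197500259-197500378 on the plus strand, are shown because most of them lie before both starts. Capitals mark the 104 bases before both starts, and the lower-case bases are the first of the HSPD1 transcript.
HSPE1: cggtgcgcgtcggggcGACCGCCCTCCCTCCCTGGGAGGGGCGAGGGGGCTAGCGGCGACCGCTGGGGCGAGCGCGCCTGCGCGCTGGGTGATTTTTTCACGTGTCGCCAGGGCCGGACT
No pair of inverted GAA repeats lay in the 250 bases before either start. The brightest probe sets of HSPD1 both gave positive differences (0.23 and 0.34), and 3 dimmer ones gave -0.38, 0.52 and -0.43, none past the threshold.

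DNAJA3, the J-domain protein of the matrix, was the one that passed. It read 1176, 1121 and 1176 against 1531, 1509.7 and 1448, without overlap (1.29-fold lower in 10A/143B, -0.37 ± 0.10, adjusted p = 0.0292), and -0.31 on its other probe set. TRAP1, the HSP90 of mitochondria, read 1531, 1833 and 1951 against 2034, 2241 and 2135 (-0.31 ± 0.12, adjusted p = 0.126, or 0.0230 with the block). TRAP1 also passed after quantile normalization (adjusted p = 0.0462), median centring (adjusted p = 0.0328) or removal of the trend over gene length (adjusted p = 0.0305). The DNAJA3 call was lost without 468/143B replicate 1 (adjusted p = 0.234) and without 10A/143B replicate 1 (adjusted p = 0.0661), and also with its probe sets averaged (adjusted p = 0.0521) and without the intensity trend (adjusted p = 0.160).

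Set side by side, 26 cytosolic members had a median difference of 0.02, with 4 higher and 5 lower, and the 4 mitochondrial members one of -0.05, with 0 higher and 1 lower. The sign of the cytosolic median was not stable, since median centring moved these medians to -0.066 and -0.14, and that of all genes from -0.02 to -0.11. Single members ranged from -1.48 to 1.18 in the cytosol and from -0.37 to 0.23 in mitochondria. The 1.18 is that of DNAJC5, the protein of secretory vesicles, which was counted as cytosolic here. The difference between the compartments was not tested. The 4 members of the endoplasmic reticulum had 2 higher, HSPA13 and DNAJC10, and a median of 0.65. In either direction 34.6% of cytosolic members passed, 25% of mitochondrial ones and 50% of those of the endoplasmic reticulum. Over all genes 22.7% passed (13.8% higher and 8.9% lower). Of the 12377 brighter genes counted earlier, 35.2% passed (21.4% higher and 13.8% lower). The cytosolic share was thus near that of the brighter genes, and compartments of 4 members are too small to compare.

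**Figure D3:**
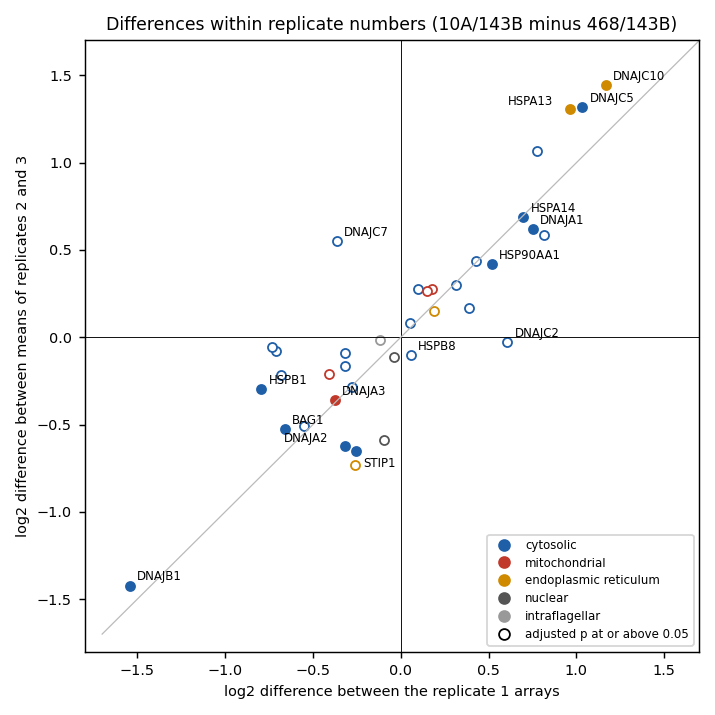
Log2 difference between the replicate 1 arrays (horizontal) against that between the means of replicates 2 and 3 (vertical) for the 37 measured genes, coloured by compartment and filled where the adjusted p was under 0.05, with a line of equality. The 12 filled genes lie in the lower left or upper right, and 3 open ones, DNAJC7, DNAJC2 and HSPB8, have opposite signs.

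Within the replicate numbers, 34 of 37 members had the same sign in replicate 1 as in replicates 2 and 3, against 71.9% of all genes. The fit uses these same values, so agreement among the 12 that passed follows from the call. The share over all genes was not taken at a like level, so the 2 shares are not comparable. The median of all probe sets was reached by 35 of the 37 members, but by only 12377 of 19775 genes. HSPB1 had the larger difference in replicate 1 (-0.79 against -0.30), and STIP1 in replicates 2 and 3 (-0.65 against -0.25).

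Probe sets of a gene often differed in sign. Of 27 members with more than 1 probe set, 16 had the same sign on each and 11 had both signs. With replicates 2 and 3 averaged, 0 had probe sets that passed in opposite directions. On that fit 17 of all 84 probe sets were higher and 6 lower (background 11.7% and 6.14% of 41091, not taken at a like brightness). With the 6 arrays as separate samples, HSPA13, HSPA14 and DNAJB14 had probe sets that passed in both directions. The lower ones had adjusted p of 0.00348, 0.00553 and 0.00558. HSP90AA1 had positive differences on each of 4 probe sets, DNAJA1 on both of its probe sets and HSPA4 on each of 4.

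**Figure D4:**
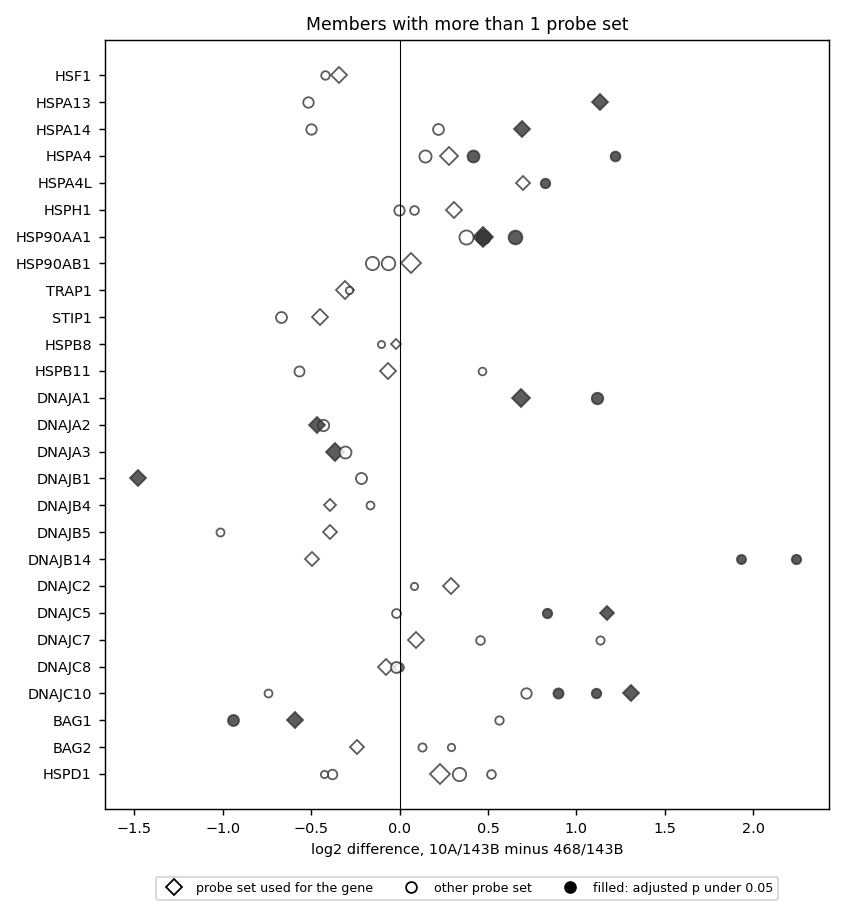
Log2 difference (10A/143B minus 468/143B) of every probe set of the 27 members with more than 1, as a diamond for the probe set used for the gene and circles for the others, filled where the adjusted p over all probe sets was under 0.05, with larger symbols for brighter probe sets. DNAJB14 shows filled circles at 1.93 and 2.24 and an open diamond at -0.50.

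Other chaperone systems also held genes that were higher and genes that were lower. Of 12 measured subunits of the cytosolic chaperonin CCT and of prefoldin, which fold actin and tubulin, 3 were higher and 3 lower in 10A/143B (median 0.01). These and the counts that follow stand beside 13.8% higher and 8.9% lower over all genes. Among the 12377 brighter genes counted earlier the shares were 21.4% and 13.8%. Chaperonin and prefoldin genes that passed included CCT6A (0.53 ± 0.10) and VBP1 (0.49 ± 0.09), against PFDN1 (-0.69 ± 0.16) and PFDN5 (-0.54 ± 0.11). Of 30 further HSP70 and HSP90 partners and relatives, 6 were higher and 3 lower, with a median of -0.03. HSPBP1, an exchange factor of HSP70, fell by 1.08 ± 0.14 on the log2 scale in 10A/143B relative to 468/143B, while the HSP70 regulator BAG5 (0.94 ± 0.13), the ribosome-biogenesis J-domain protein DNAJC21 (1.01 ± 0.16) and HSPA12A (1.13 ± 0.24) were higher.

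Of 18 other chaperones of the endoplasmic reticulum, 7 were lower and 1 higher, against 8.9% lower and 13.8% higher over all genes. Their median was -0.07, against -0.02 over all genes. SERPINH1, the collagen chaperone, was lower (-1.28 ± 0.26), as were SIL1, an exchange factor (-0.94 ± 0.18), and the lectin chaperone CALR (-0.74 ± 0.12), while SEC63, the J-domain protein of the translocon, was higher (0.75 ± 0.11). HSPA5, the HSP70 of that compartment, named after its value was seen because it is the partner of DNAJC10 and DNAJB11, was lower (-0.67 ± 0.10, adjusted p = 0.00278). DNAJC10 thus differed in sign from HSPA5.

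Of 19 further mitochondrial chaperones and proteases, 3 were higher and 5 lower (median 0.05). The inner membrane proteases OMA1 (0.91 ± 0.16) and YME1L1 (0.67 ± 0.13) were higher, and the disaggregase CLPB (-0.98 ± 0.17) and DNAJC4 (-1.42 ± 0.19) were lower. Of 13 regulators of heat shock factors, 3 were higher and 3 lower (median -0.27). The deacetylase SIRT1, which prolongs DNA binding by HSF1, was higher (0.61 ± 0.13), and HSBP1, which binds HSF1 trimers (-0.53 ± 0.10), the kinase PLK1 (-0.91 ± 0.13) and DAXX (-0.59 ± 0.17) were lower. Of 10 genes of ubiquitin and aggregate clearance, 1 passed, the stress-inducible ZFAND2A, which was lower in 10A/143B (-1.56 ± 0.15, adjusted p = 0.000552).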

How the data were processed

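Data of 6 Affymetrix HG-U133 Plus 2.0 arrays were used as deposited: linear intensities, whose summary, background and scaling steps the sources used here do not give. Samples were grouped and numbered by source name; titles number the arrays otherwise but pair them alike. Log2(intensity + 16) was fitted with limma 3.58.1 in R 4.3.3 (lmFit, eBayes with an intensity trend, Benjamini-Hochberg at 0.05 over 19775 genes), with replicates 2 and 3 of each group averaged (2 against 2 samples). Differences are 10A/143B minus 468/143B with their standard error (SE), and folds are on that scale, which understates the change of dim genes. Probe set values were adjusted over 41091 probe sets. Each gene was represented by the probe set with the highest mean over 6 arrays. Names came from the platform's table, updated to RefSeq by Entrez identifier for 41037 probe sets. Deviations from the group means correlated between same-numbered arrays of the groups (r = 0.298, 0.220 and 0.232 over 5711 genes). Replicate 2 of one group and 3 of the other correlated alike (r = 0.273 and 0.223), and replicate 1 with either gave -0.29 to -0.24. These values set replicate 1 apart but do not tell replicates 2 and 3 from each other. Numbers were treated as pairs in the block fits, and for replicates 2 and 3 in the block on 6 arrays that pairing is assumed. All members were named whatever their values, of other chaperone lists up to 4 genes past the threshold with the largest difference, and of marker lists those past it; HSPA5, VIM, EPCAM, KRT18, KRT5 and CDH1 were added after their values were seen. Members and lists were chosen with earlier results of these data known. The fit was also run on simulated data, the outcome is not given, and no result here rests on that run. Alternatives included separate arrays, scaling, offset, level filter, probe set choice, gene length and omitted replicates.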

Additional observations from a re-analysis of the deposited data

How the results depend on the processing

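All 12 members that passed kept their sign under each of the alternatives that gave them a value, and DNAJA1 and DNAJB1 passed in each of those with a test (21 and 20). In some the sign could not change, since the block, the fit without the intensity trend and that over every probe set return the same difference. Dimmer probe sets of HSPA13 (-0.52), HSPA14 (-0.50), DNAJC10 (-0.75), BAG1 (0.56) and DNAJC5 (-0.02) had the opposite sign. None of these stood alone for its gene in an alternative. DNAJB1, STIP1, HSPB1, DNAJA3 and DNAJC5 have no value without _x_at and _s_at probe sets. The counts moved more. As separate samples the 6 arrays gave 12 members higher and 7042 genes called, the replicate block gave 10 higher, and the block on 6 arrays gave 14 higher, 11 lower and 7750 genes. With every probe set tested separately the unit is the probe set: 17 of 84 were higher, and 7341 of all 41091 passed (17.9%, against 22.7% of genes). Lower members numbered 1 without the intensity trend, 3 with probe sets averaged per gene and 2 without _x_at and _s_at probe sets, where 4 of the 6 were absent. With replicates left out, 4 to 7 members were higher, 1 to 5 lower, and 1895 to 4372 genes passed. Leaving out replicate 1 of both groups leaves 1 sample per group and no test.

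The cytosolic median was -0.047 after quantile normalization and -0.066 after median centring, and ran from -0.079 to 0.14 with replicates left out. The mitochondrial median was -0.14 after median centring, -0.35 without _x_at and _s_at probe sets and -0.30 over every probe set, and ran from -0.10 to 0.062 with replicates left out. Signs changed for members that had not passed. DNAJB14 turned to 1.23 with the mean of its probe sets and to 2.24 without _x_at and _s_at probe sets, where HSPB11 gave 0.46 and HSPD1 -0.38. HSP90AB1 gave -0.022 after median centring, -0.051 with the mean of its probe sets and -0.0025 to 0.15 with replicates left out. DNAJC7 gave -0.012 after quantile normalization and BAG2 0.060 with the mean of its probe sets. HSPB8 gave 0.035 with an offset of 1, 0.037 with the length trend removed, and -0.37 to 0.25 with replicates left out. With replicates left out, DNAJB5 ran from -0.58 to 0.13 and BAG3 from -0.35 to 0.062, both positive without 10A/143B replicate 1. The causes of these changes were not tested. Of the members that changed sign, HSPB8 lay near the median intensity of 22.0, while HSP90AB1 and BAG3 were bright. The part of low signal was not tested, and the number of arrays limits all values.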
